A study of Mus musculus with 6 samples.

Results

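The proteasome genes described here encode the constitutive subunits of the proteasome, together with the chaperone gene Pomp and the transcription factor gene Nfe2l1. Members were the protein-coding genes of the count table named Psma, Psmb, Psmc or Psmd with a number, without the immunoproteasome genes Psmb8, Psmb9 and Psmb10, plus Nfe2l1 and Pomp. This gave 38 of 53801 genes: 16 genes of the core particle (8 alpha and 8 beta), 20 genes of the regulatory cap (6 ATPase and 14 non-ATPase), and the added pair. Stromal vascular cells, the non-fat-cell fraction of adipose tissue, had been taken from the inguinal fat of Ythdf1 knockout mice and of wild-type mice, as the labels name them, and cultured under adipogenic induction for 4 days. Ythdf1 encodes a cytoplasmic reader of the m6A mark on RNA. The 2 genotypes had 3 libraries each, called biological replicates by the series, and both had the same tissue of origin and the same induction. The labels give neither strain, sex and age nor the deleted stretch of Ythdf1, the cells it was deleted in, or any pooling of animals.

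The proteasome is the main protease of the cytosol and nucleus and degrades proteins tagged with ubiquitin. Its barrel-shaped core is built of outer alpha rings, which gate the entrance, and inner beta rings, of which Psmb5, Psmb6 and Psmb7 carry the protein-cutting sites. The cap binds ubiquitin chains, removes them, and unfolds the substrate with a ring of ATPases, which Psmc genes encode. Transcription of the subunit genes is raised together by NFE2L1, a factor anchored in the endoplasmic reticulum that is itself degraded by the proteasome and accumulates when the proteasome is inhibited. In brown fat of mice, NFE2L1 is known to sustain proteasome activity.

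Counts are given as CPM, the usual unit of counts relative to the scaled library total (a list of values names the knockout libraries first, in the order of the replicates), and the change as a log2 fold change of knockout over wild type with its standard error. Means are given ± SD over the 3 libraries of a genotype, knockout against wild type. The libraries held between 16619605 and 20089138 counts, so that 3 counts stood for at most 0.185 CPM. Ythdf1 itself was at 45.1, 42.8 and 43.5 CPM in knockout against 63.0, 62.1 and 60.4 CPM in wild type, lower in every knockout library but not lost (log2 fold change -0.50, edgeR adjusted p = 0.000378). The labels call the cells adipocytes derived from this fraction, and all 7 adipocyte markers examined were higher in knockout, with summed levels of 10895 to 15381 CPM against 1999 to 3075 CPM. Among all genes tested, 22.6% were higher and 21.7% lower. Of 7 fibroblast and progenitor markers 5 were lower, and the sum of all 7 was 16286 to 17565 CPM in knockout against 36097 to 39683 CPM in wild type. Col1a1 (7480 ± 385 against 17723.5 ± 1055 CPM) and Col3a1 (7209 ± 337 against 17404 ± 704 CPM) made up most of it. Dpp4, Pi16 and Thy1 were also lower. Pdgfra (595 ± 58.1 against 696 ± 44.3 CPM) and Ly6a (1373 ± 71.3 against 1281 ± 82.8 CPM) did not pass. The sum of 8 macrophage markers was 108 to 113 CPM in knockout replicates 1 and 2, 279 CPM in knockout replicate 3 and 35.4 to 48.7 CPM in wild type, and the sum of 4 markers of dividing cells was 161 to 271 CPM against 382 to 497 CPM. Markers of T and B cells summed to at most 0.514 CPM, and those of endothelium to 23.8 to 33.9 CPM in knockout against 21.6 to 27.7 CPM in wild type. Of the 5 endothelial markers Tek alone passed, as higher (15.3 ± 0.954 against 11.8 ± 1.14 CPM, edgeR adjusted p = 0.0345). Smooth muscle markers summed to 86.2 to 110.0 CPM in knockout against 607 to 918 CPM in wild type. The 5 epithelial markers summed to 38.2 to 50.6 CPM in knockout against 48.6 to 62.8 CPM in wild type. Most of that was Krt19, which did not pass (43.6 ± 6.41 against 41.1 ± 6.52 CPM), while Epcam, Krt8 and Cdh1 were lower in knockout, each at no more than 8.71 CPM in any library, and Krt18 was too low to test. Whether a gene changed because fewer or more cells of a type were present, or because each cell held less or more of its RNA, cannot be told apart in such bulk samples, and the part of these markers in the results below was not tested.

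The promoters of 4 members are shown because these genes had the largest changes in core and cap or encode catalytic subunits with unlike changes: Psma1 and Psmb5, with the largest rises of the core, Psmb6, a catalytic subunit gene that did not pass the test, and Psmd4, with the largest rise of the cap. Each sequence holds 250 bases before and 50 bases after a transcription start in RefSeq (GRCm38.p6), 5′ to 3′ on the strand of the gene. Capitals mark 2 motifs, searched on both strands, that do not overlap in these sequences. Runs of 9 capitals are the core of the antioxidant response element, TGACNNNGC, to which NFE2L1 and its relatives bind with small Maf partners. Runs of 5 capitals are the CCAAT box, CCAAT or, on the other strand, ATTGG. Psma1 is at chr7:114276067-114276366 (minus strand), Psmb5 at chr14:54617946-54618245 (minus), Psmb6 at chr11:70525107-70525406 (plus) and Psmd4 at chr3:95042565-95042864 (minus).
Psma1: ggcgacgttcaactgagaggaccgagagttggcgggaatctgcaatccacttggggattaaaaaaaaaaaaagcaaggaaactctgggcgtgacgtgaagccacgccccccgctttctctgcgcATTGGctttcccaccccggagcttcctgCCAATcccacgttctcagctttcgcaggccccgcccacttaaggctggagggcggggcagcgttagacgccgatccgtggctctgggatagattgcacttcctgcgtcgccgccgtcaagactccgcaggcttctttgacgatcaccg
Psmb5: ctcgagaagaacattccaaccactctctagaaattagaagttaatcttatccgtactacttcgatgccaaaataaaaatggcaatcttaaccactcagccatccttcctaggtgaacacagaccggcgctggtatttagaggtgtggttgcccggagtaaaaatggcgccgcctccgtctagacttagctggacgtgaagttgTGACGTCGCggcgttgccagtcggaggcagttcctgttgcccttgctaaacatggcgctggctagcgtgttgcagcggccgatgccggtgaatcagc
Psmb6: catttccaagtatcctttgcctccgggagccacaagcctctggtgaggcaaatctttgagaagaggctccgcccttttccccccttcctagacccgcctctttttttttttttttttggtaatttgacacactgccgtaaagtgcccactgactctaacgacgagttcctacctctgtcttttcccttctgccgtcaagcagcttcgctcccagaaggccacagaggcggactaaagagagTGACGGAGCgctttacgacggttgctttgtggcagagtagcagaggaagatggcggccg
Psmd4: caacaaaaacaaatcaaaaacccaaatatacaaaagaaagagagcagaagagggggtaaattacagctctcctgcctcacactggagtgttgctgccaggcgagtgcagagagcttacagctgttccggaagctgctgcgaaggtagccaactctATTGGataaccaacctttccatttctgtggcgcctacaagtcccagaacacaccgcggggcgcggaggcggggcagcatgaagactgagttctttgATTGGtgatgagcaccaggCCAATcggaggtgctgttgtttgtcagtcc

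The response element core was present in the Psmb5 window at position -47 and in the Psmb6 window at position -9, both relative to the transcription start, and was in neither of the other windows. The Psma1 window had CCAAT boxes at -126 and -98, and the Psmd4 window at -95, 2 and 21. Promoters were found for 31 of the 38 members, the others being Psma8, Psmb1, Psmb2, Psmb7, Psmc3, Psmd3 and Psmd7, and 30 of those 31 were tested for expression. Of these 30, 5 held the response element core (16.7%), namely Psmb5, Psmb6, Psmc6, Psmd9 and Psmd12, against 14.0% of 27025 genes in the table. A gene was counted once if any of its promoter windows held the motif, and 3 members had more than 1 window. Among the 8 of these genes that rose 1 held it, and among the 22 that did not pass 4 did. The CCAAT box was in 12 of the 30 (40%) against 41.1% of all genes in the table, in 4 of the 8 that rose and in 8 of the 22 that did not pass. The median log2 fold change was 0.15 for members with the response element core and 0.15 for those without, and 0.16 and 0.15 for members with and without the CCAAT box. No difference between these shares was tested.

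In Ythdf1 knockout cultures a minority of the proteasome genes were higher and none were lower. Of 36 members with enough counts to be tested, 10 (27.8%) were higher in knockout at an edgeR adjusted p under 0.05, and 0 were lower. Of the 14816 genes in the fit 44.3% passed, 22.6% as higher and 21.7% as lower, so the share that changed was smaller than in the table as a whole and the share that rose was near it. The genes that rose were Psma1, Psma5, Psma6, Psmb5 and Psmb7 of the core, Psmc4, Psmd3, Psmd4 and Psmd11 of the cap, and Nfe2l1. At an unadjusted p under 0.05 no member was lower either, and DESeq2 called none lower. One member, Psmb1, was called lower by limma-voom with quality weights (log2 fold change -0.21, adjusted p = 0.0353) and without knockout replicate 2 (-0.23, adjusted p = 0.0428). The median log2 fold change of the members was 0.15, against 0.0084 over all genes, and the median of its absolute size was 0.15 against 0.36. Knockout values lay wholly above wild type for 14 members and wholly below for 0, where 27.9% of all genes lay above, 27.3% below and 55.2% did not overlap in either direction.

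**Figure D1:**
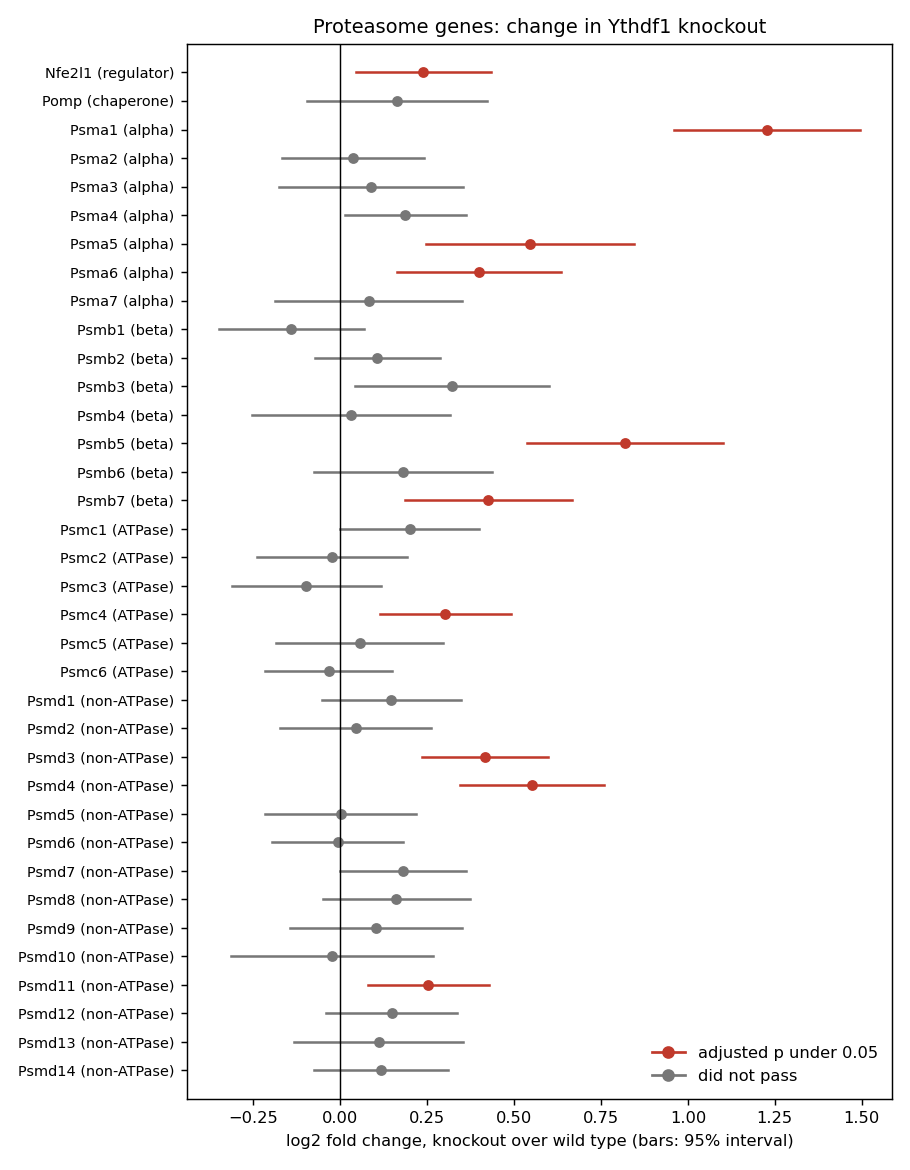
Log2 fold change of knockout over wild type (horizontal axis) for the 36 tested proteasome genes, ordered by class, with 95% intervals as bars; red marks genes with an adjusted p under 0.05 and grey the others. Psma1 stands at 1.23 and Psmb5 at 0.82, while every gene in grey lies between -0.14 and 0.32.

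For the 26 members that did not pass, the fold changes lay between -0.14 and 0.32 on the log2 scale. Their 95% intervals ran from a fold of 0.785, the lower bound for Psmb1, to a fold of 1.52, the upper bound for Psmb3. The standard errors of the 36 tested members were between 0.079 and 0.14. Psma8, a subunit gene known from testis, and Psmb11, a subunit gene of the thymus, were too low to test. Psma8 had 1, 0 and 2 raw counts against 4, 3 and 9, and Psmb11 had 3 counts in wild-type replicate 1 and 0 in the other 5 libraries.

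Nfe2l1 was among the genes with a small rise. Its levels were 440.1, 424 and 418 CPM in knockout replicates 1 to 3 against 361, 378 and 347 CPM in the wild-type replicates, with no overlap between the genotypes. The change was 0.24 ± 0.089 on the log2 scale, or 1.18-fold (95% interval 1.03 to 1.35), with an edgeR adjusted p of 0.0463. This call was lost in 9 of 17 alternative analyses, among them the one with upper-quartile factors (adjusted p = 0.109) and those without knockout replicate 1 (0.157) or wild-type replicate 3 (0.12). The direction was the same in all 17. The RNA level does not show the amount of NFE2L1 protein, which is set largely by its degradation and processing.

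Among 16 tested genes known to process NFE2L1 or to act with or against it, 5 were higher and 3 lower, with a median log2 fold change of 0.024. Thus 50% passed and 31.25% were higher, against 44.3% and 22.6% of all genes tested. Ddi2, the protease that cleaves NFE2L1 into its active form, was at 98.1 ± 6.38 against 78.4 ± 8.10 CPM (log2 fold change 0.32, adjusted p = 0.0172), and Ngly1, the enzyme that strips its sugars, was at 34.5 ± 3.88 against 27.6 ± 2.47 CPM (0.32, adjusted p = 0.0325). The small Maf partner gene Mafg rose by 0.28, and its call was lost without knockout replicate 1, wild-type replicate 1 or wild-type replicate 2 (adjusted p of 0.0589, 0.066 and 0.0531). The other small Maf genes did not pass. Mafk was at 24.5 ± 3.67 against 28.7 ± 1.46 CPM, with no overlap (-0.23, adjusted p = 0.14), and Maff at 58.96 ± 6.11 against 56.3 ± 3.87 CPM (0.065, adjusted p = 0.626). Bach1, a repressor that competes for the same DNA element, was lower in knockout, with 48.9, 48.2 and 59.5 against 80.9, 77.2 and 76.8 CPM (log2 fold change -0.58 ± 0.096, adjusted p = 0.000496). The other lower genes, Btrc (-0.31) and Fbxw7 (-0.34), encode substrate receptors of ubiquitin ligases. Nfe2l3, a relative of Nfe2l1, had the largest change of this list but a low level, at 6.43, 5.74 and 6.68 against 0.848, 1.61 and 0.914 CPM (log2 fold change 2.49 ± 0.27, adjusted p = 2.47e-05). The stress regulator Nfe2l2 was at 134 ± 10.8 against 136 ± 6.81 CPM and Vcp, the ATPase that extracts NFE2L1 from the membrane, at 313 ± 20.5 against 340.4 ± 14.05 CPM, and neither passed (adjusted p = 0.875 and 0.317).

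Pomp encodes a chaperone of core assembly that is degraded inside the finished particle. Its levels were 62.01, 79.9 and 67.01 CPM in knockout replicates 1 to 3 against 65.9, 67.5 and 53.2 CPM in the wild-type replicates, and the genotypes overlapped (log2 fold change 0.16 ± 0.12, 95% interval -0.095 to 0.42, adjusted p = 0.288). Of 5 other tested genes of the assembly list 1 was higher (20%, against 22.6% of all genes tested) and 0 lower. That was Psmg1, a chaperone of the alpha ring, at 15.8 ± 1.71 against 12.4 ± 0.276 CPM (0.35, adjusted p = 0.0425), whose call was lost in 10 of 17 alternatives. Its partner Psmg2 was at 10.6 ± 0.998 against 12.4 ± 0.496 CPM (log2 fold change -0.22, adjusted p = 0.188). The remaining genes were Psmg3, Psmg4 and Txnl1, which did not pass.

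**Figure D2:**
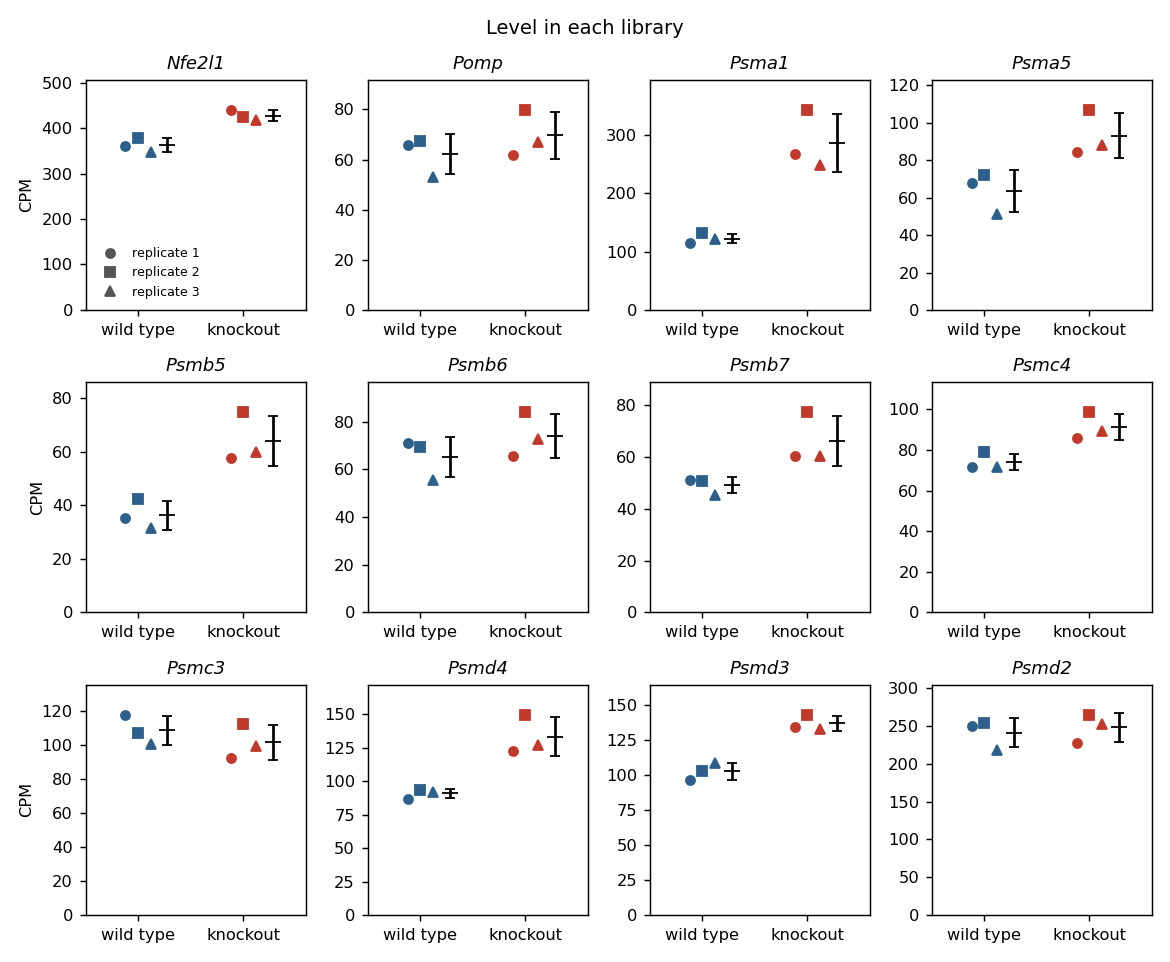
CPM in each library (vertical axes, from 0) for 12 proteasome genes, wild type in blue and knockout in red, with the symbol giving the replicate and the black bar the mean ± SD (n = 3). Psma1, Psmb5, Psmd4 and Psmd3 separate the genotypes, while Pomp, Psmb6, Psmc3 and Psmd2 overlap.

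Among the alpha subunit genes, Psma1 stood apart from the rest. It had 268, 343 and 249.4 CPM in knockout replicates 1 to 3 against 114, 131 and 122 CPM in the wild-type replicates. Every knockout library lay far above the highest wild-type library. The log2 fold change was 1.23 ± 0.12, or 2.34-fold (95% interval 1.94 to 2.82), with an adjusted p of 1.31e-05, and it ran from 1.08 to 1.32 with 1 library left out. As a share of the summed alpha levels per kilobase of transcript, Psma1 made up 34.4%, 34.8% and 31.7% in the knockout replicates against 18.8%, 20.8% and 21.9%.

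Psma5 and Psma6 rose less. Psma5 had 84.3, 107 and 88.1 against 67.9, 72.4 and 51.1 CPM (log2 fold change 0.55 ± 0.14, adjusted p = 0.00744), and Psma6 had 109.6, 143 and 112 against 95.5, 93.3 and 87.7 CPM (0.40 ± 0.11, adjusted p = 0.0106). In both, all knockout libraries lay above all wild-type libraries. The alpha gene with the smallest change, Psma2, was at 84.99, 101 and 88.8 against 91.6, 94.4 and 81.7 CPM, with overlapping genotypes and a log2 fold change of 0.037 ± 0.094 (95% interval -0.17 to 0.24). Psma3 (111 ± 18.8 against 104 ± 9.999 CPM), Psma4 (113 ± 4.49 against 99.4 ± 3.50 CPM) and Psma7 (101 ± 17.2 against 95.1 ± 9.31 CPM) did not pass either, although the groups did not overlap for Psma4 (adjusted p = 0.0757). Psma7 lies 862 kb from Ythdf1 on chromosome 2. In all, 3 of 7 tested alpha genes were higher (42.9%, against 22.6% of all genes) and 0 lower, with a median log2 fold change of 0.19.

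Of the catalytic beta subunits, Psmb5, which gives the chymotrypsin-like activity, changed most. It was at 57.5, 74.7 and 59.9 CPM in knockout replicates 1 to 3 against 35.1, 42.2 and 31.7 CPM in the wild-type replicates, with the highest wild-type library below the lowest knockout library. This is a log2 fold change of 0.82 ± 0.13, or 1.76-fold (95% interval 1.45 to 2.15), with an adjusted p of 0.000398. Psmb7, of the trypsin-like site, was at 60.4, 77.2 and 60.4 against 51.2, 50.7 and 45.4 CPM (log2 fold change 0.43 ± 0.11, adjusted p = 0.00796), again with no overlap. Psmb6, of the caspase-like site, was at 65.4, 83.9 and 72.6 against 70.9, 69.4 and 55.6 CPM and overlapped between genotypes (log2 fold change 0.18 ± 0.12, 95% interval -0.077 to 0.44, adjusted p = 0.239). Per kilobase of transcript, the ratio of Psmb5 to Psmb6 was 0.781, 0.790 and 0.733 in knockout against 0.439, 0.540 and 0.505 in wild type, and was thus higher in each knockout library. The exact 2-sided permutation test gave p = 0.1, the smallest p that 3 against 3 libraries allow. Groups that do not overlap always give this p here, so the test adds nothing to the values. Psmb7 shares 405 exon bases, 11.8% of its exon length, with the opposite-strand gene Nek6, and the strand setting of the counting is not given in the sources used here, which makes its level uncertain. Nek6 was at 94.7 ± 8.80 against 142 ± 4.35 CPM, lower in knockout.

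The structural beta genes did not pass. The largest difference among them was that of Psmb3, at 75.7, 97.7 and 79.8 against 71.3, 75.1 and 56.2 CPM (log2 fold change 0.32 ± 0.13, adjusted p = 0.059). The genotypes did not overlap, and Psmb3 passed in 4 of 17 alternatives, including the replicate block (adjusted p = 0.0247) and the one with no scaling factor (0.0378). At the other end was Psmb1, with 111, 133 and 111 against 133, 136 and 122 CPM (log2 fold change -0.14 ± 0.095, adjusted p = 0.256). Psmb2 was at 82.7 ± 5.48 against 76.8 ± 2.59 CPM and Psmb4 at 114 ± 22.6 against 111 ± 9.15 CPM. In all 2 of 7 tested beta genes were higher (28.6%, against 22.6% of all genes) and 0 lower, with a median log2 fold change of 0.18.

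The ATPase ring of the cap varied little between genotypes. Psmc4 alone of 6 passed, as higher (16.7%, where 22.6% of all genes were higher and 44.3% passed in either direction). It had 85.9, 98.6 and 89.4 against 71.7, 78.8 and 71.7 CPM (log2 fold change 0.30 ± 0.086, adjusted p = 0.0139). Its knockout libraries were all above wild type, and its call was lost without wild-type replicate 1 (adjusted p = 0.0543). Psmc3 had the lowest fold change of the ring, with 92.4, 113 and 99.8 against 118, 107 and 101 CPM (log2 fold change -0.098 ± 0.098, 95% interval -0.31 to 0.12), and overlapped. Psmc1 was at 139 ± 10.3 against 121 ± 8.52 CPM with groups that did not overlap and an adjusted p of 0.0966, which was 0.0492 without knockout replicate 3. Psmc2, Psmc5 and Psmc6 were at 73.8 ± 6.09 against 74.99 ± 7.61 CPM, 68.5 ± 10.2 against 65.9 ± 4.74 CPM and 103 ± 5.45 against 105 ± 5.64 CPM. Psmc3 shares 215 exon bases (8.25%) with the opposite-strand gene Slc39a13, which was lower in knockout at 95.1 ± 3.56 against 120.01 ± 12.1 CPM, so its level is uncertain for the same reason as that of Psmb7.

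Among the non-ATPase cap genes, the ubiquitin receptor gene Psmd4 rose most. It was at 123, 149.8 and 127 CPM in knockout replicates 1 to 3 against 86.9, 93.7 and 92.2 CPM in the wild-type replicates. The knockout libraries all lay above the wild-type libraries, and the log2 fold change was 0.55 ± 0.094, or 1.46-fold (95% interval 1.27 to 1.69), with an adjusted p of 0.000644. Psmd3, a subunit of the lid, the part of the cap that holds the deubiquitinase, was at 134, 143 and 133 against 96.5, 102 and 109 CPM (log2 fold change 0.42 ± 0.083, adjusted p = 0.00179). Psmd11, a lid subunit that bridges to the core, was at 113, 112 and 123 against 97.5, 99.2 and 96.1 CPM (0.25 ± 0.079, adjusted p = 0.0221). Groups did not overlap in either gene, and the call for Psmd11 was lost in 7 of 17 alternatives, at adjusted p-values of 0.052 to 0.0692. Without wild-type replicate 1 the cap count fell from 4 to 2, by loss of Psmc4 and Psmd11.

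The cap genes Psmd2 and Psmd14 did not pass. Psmd2, a large scaffold that also docks shuttle proteins, was at 227, 265 and 253 against 250.01, 255 and 219 CPM (log2 fold change 0.044 ± 0.099, 95% interval -0.17 to 0.26). Psmd14, the deubiquitinase that removes the chain from the substrate, was at 80.05, 96.3 and 85.5 against 82.3, 81.01 and 77.96 CPM (0.12 ± 0.088, 95% interval -0.076 to 0.31). Both overlapped between genotypes. The remaining lid and base genes, Psmd1, Psmd6, Psmd7, Psmd8, Psmd12 and Psmd13, had log2 fold changes from -0.0074 for Psmd6 to 0.18 for Psmd7. Psmd13 shares 342 exon bases (10.1%) with the opposite-strand gene Sirt3, a mitochondrial deacetylase gene that was higher in knockout at 15.3 ± 2.89 against 7.75 ± 0.54 CPM, so the level of Psmd13 is uncertain for the same reason.

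Psmd5, Psmd9 and Psmd10 are named as cap subunits but encode chaperones that guide assembly of the ATPase ring and leave it afterwards. Psmd5 was at 42.8, 48.7 and 49.7 against 49.4, 49.7 and 41.95 CPM, Psmd9 at 21.9, 25.7 and 20.3 against 21.5, 20.9 and 20.8 CPM and Psmd10 at 20.3, 26.2 and 22.4 against 27.1, 21.6 and 21.3 CPM. Their genotypes overlapped, with 95% intervals of the log2 fold change of -0.22 to 0.22, -0.14 to 0.35 and -0.31 to 0.27. In wild type these were also the lowest tested members per kilobase of transcript, at 10.7, 8.12 and 16.3 CPM per kb, against at least 30.02 CPM per kb for the other 33.

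The order of the other levels per kilobase was led in wild type by Psmd8 at 146 CPM per kb, followed by Psma7 at 104 and Psma1 at 102. In knockout Psma1 came first at 239 CPM per kb and Psmd8 second at 163. Psmb5 moved from rank 27 of 36 in wild type (40.4 CPM per kb) to rank 15 in knockout (71.2), and Psmd4 from rank 14 (68.3) to rank 6 (100.1). All these ranks depend on the length chosen. The main transcript of Psma1 has 1201 bases and all its exons 2952, and for Psma7 these lengths are 914 and 3071 bases.

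Core and cap were then set side by side. Both sets follow gene names, so the cap set holds the assembly chaperone genes Psmd5, Psmd9 and Psmd10, none of which passed. It leaves out Adrm1, a ubiquitin receptor gene of the cap described below. The effect of this choice on the comparison was not tested. Of 14 tested core genes 5 were higher and 0 lower (35.7%, median log2 fold change 0.18), and of 20 tested cap genes 4 were higher and 0 lower (20%, median 0.11), where 22.6% of all genes were higher. Summed per kilobase of transcript, the core genes reached 1182, 1499 and 1216 CPM per kb in knockout against 1042, 1063 and 922 in wild type. The cap genes reached 1060, 1216 and 1092 CPM per kb in knockout against 1023, 1021 and 974.8 in wild type. Both sums were higher in every knockout library than in any wild-type library, by a ratio of means of 1.29 for the core and 1.12 for the cap.

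The log2 ratio of core to cap was 0.16, 0.30 and 0.15 in knockout against 0.026, 0.057 and -0.080 in wild type, a difference of 0.20 between the means. The genotypes did not overlap in this ratio. Without Psma1 the ratios were -0.14, -0.0037 and -0.12 against -0.11, -0.099 and -0.25. These overlapped, and the difference fell to 0.065. Summed alpha levels were 1.42 times as high in knockout, and 1.18 times without Psma1, beta levels 1.16 times, non-ATPase levels 1.14 times and ATPase levels 1.06 times. No p is given for these sums, because the members were chosen with results of these data known.

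**Figure D3:**
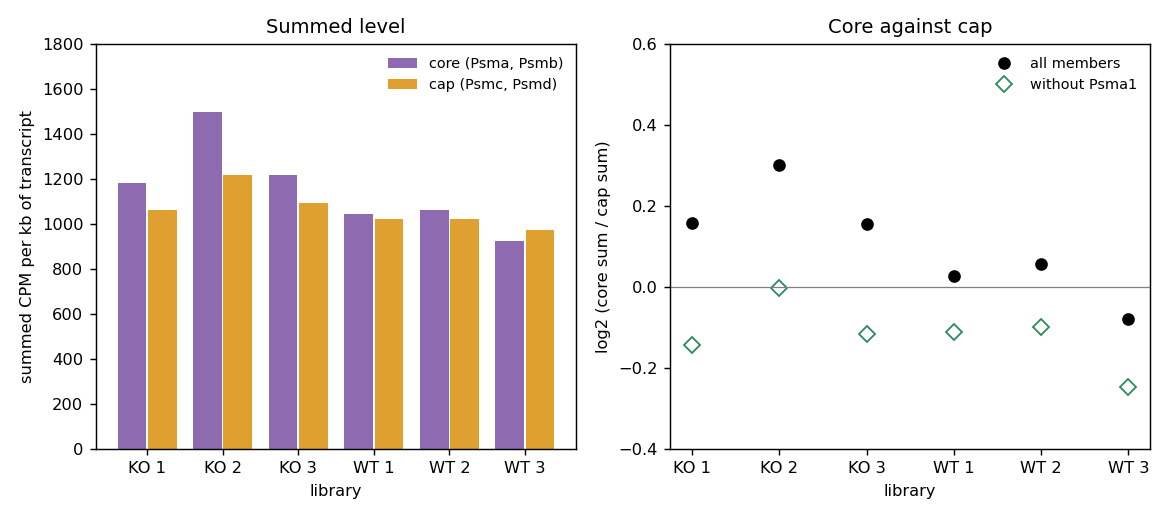
Left, summed CPM per kb of transcript of the core and cap genes in each library (bars from 0); right, the log2 ratio of the sums for all members (filled circles) and without Psma1 (open diamonds). The filled circles of the 3 knockout libraries lie at 0.15 to 0.30, above those of wild type, while the open diamonds overlap.

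The members also varied together within a genotype. Knockout replicate 2 was the highest knockout library for 32 of 36 members and for all 14 core genes, where it was the highest for 37.1% of all genes tested. Wild-type replicate 3 was the lowest wild-type library for 29 of 36 members and 13 of 14 core genes, against 37.5% of all genes. The core genes in knockout replicate 2 lay a median of 0.23 on the log2 scale above their knockout mean, and the cap genes 0.11. In wild-type replicate 3 the medians were -0.13 for the core and -0.049 for the cap. Without knockout replicate 2 the count of members higher in knockout was again 10, and the log2 fold change was 1.08 for Psma1 and 0.70 for Psmb5. Without wild-type replicate 3 it was 8. These libraries are the ones whose names end in L0, a suffix whose meaning the labels do not give, and with that suffix as a covariate 9 members were higher. The summed adipocyte markers were also highest in knockout replicate 2, where they reached 15381 CPM, with 12066 CPM in replicate 1 and 10895 CPM in replicate 3, but in wild type they were highest in replicate 3 (3075 CPM, against 1999 and 3027 CPM), the library where the members were mostly lowest. The part of these markers in the pattern was not tested.

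**Figure D4:**
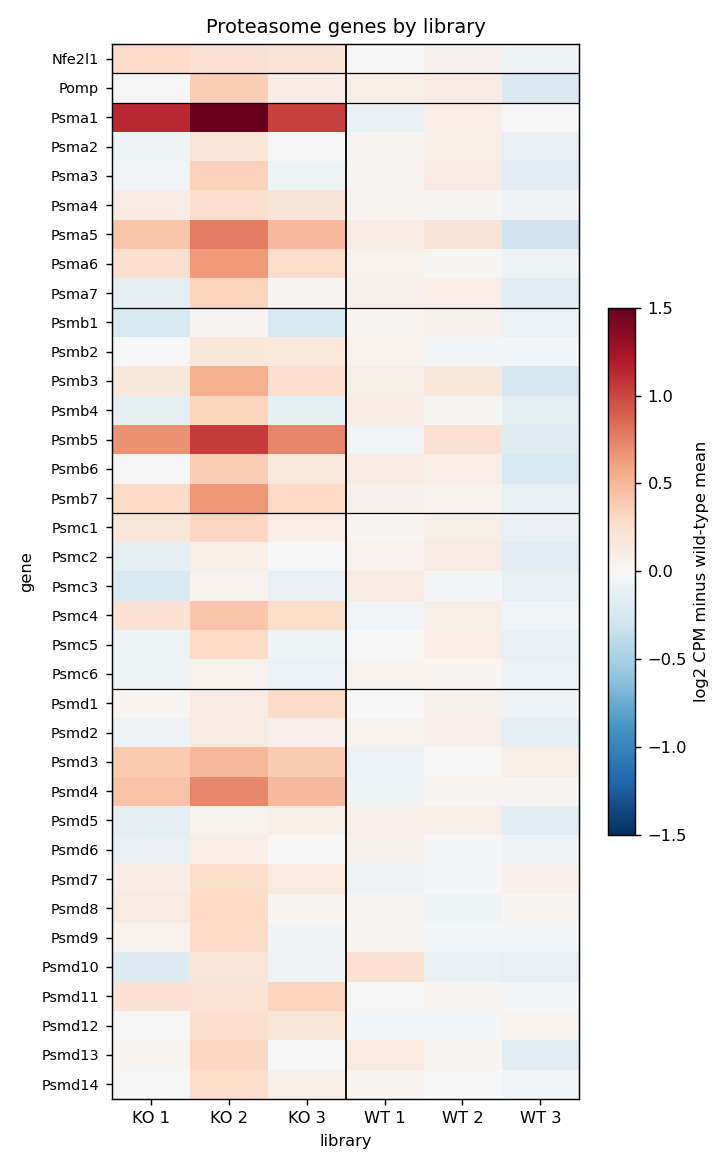
Log2 CPM of each tested proteasome gene (rows, by class) in each library (columns) minus its wild-type mean, red above and blue below. Knockout replicate 2 is the reddest column, and Psma1 and Psmb5 are red in all 3 knockout libraries.

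Genes of proteasome forms outside the constitutive set were examined beside it. Immunoproteasome subunits replace the catalytic beta subunits in immune cells and after interferon. All 3 tested rose, Psmb8 at 41.2, 57.3 and 55.99 against 31.5, 40.8 and 33.8 CPM (log2 fold change 0.54), Psmb9 at 26.8, 33.2 and 33.3 against 11.3, 13.04 and 15.4 CPM (1.23) and Psmb10 at 23.1, 28.98 and 28.3 against 15.4, 19.8 and 19.1 CPM (0.57). Of all genes tested 22.6% were higher. The adjusted p-values of Psmb8, Psmb9 and Psmb10 were 0.00851, 3.07e-05 and 0.00437, and that of Psmb8 was 0.0891 in limma-voom with quality weights. Macrophage markers were higher in knockout too, most of all in replicate 3, where the immunoproteasome genes were at about the level of replicate 2, and their part in this rise was not tested.

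Per kilobase of transcript, each immunoproteasome gene was set against the constitutive gene whose product it replaces. The ratio of Psmb9 to Psmb6 was 0.242, 0.234 and 0.271 in knockout against 0.0941, 0.111 and 0.164 in wild type, with no overlap and a ratio of means of 2.02. The ratio of Psmb8 to Psmb5 was 0.395, 0.423 and 0.516 against 0.496, 0.534 and 0.589, and that of Psmb10 to Psmb7 was 0.338, 0.332 and 0.415 against 0.267, 0.346 and 0.372. Both of these overlapped between genotypes, with ratios of means of 0.825 and 1.10.

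**Figure D5:**
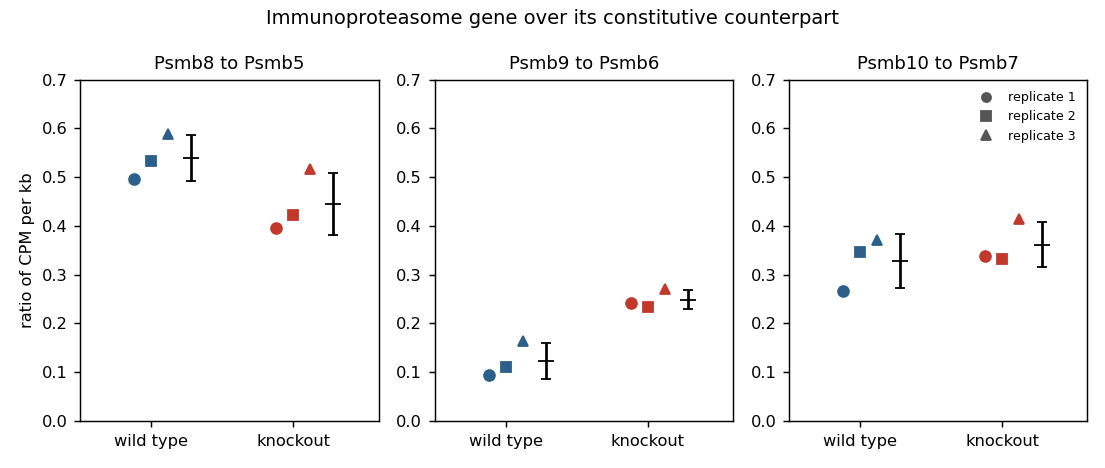
Ratio of CPM per kb of each immunoproteasome gene to its constitutive counterpart (vertical axes, from 0) in each library, wild type in blue and knockout in red, with mean ± SD (n = 3) in black. The Psmb9 to Psmb6 ratio is higher in all 3 knockout libraries, and the other ratios overlap.

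The alternative activators and the inhibitor of the core were all higher, 5 of 5 with a median log2 fold change of 0.45, where 22.6% of all genes were higher. Psme1 and Psme2, which form an interferon-inducible activator, had 105 ± 9.94 against 60.4 ± 5.95 CPM and 124 ± 20.996 against 64.8 ± 7.31 CPM (log2 fold changes 0.80 and 0.94, adjusted p = 7.89e-05 and 0.00014). Psme3, of the nuclear activator, rose by 0.45, Psme4 by 0.29 and the inhibitor gene Psmf1 by 0.36.

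Of 13 tested genes of other proteasome-bound proteins 4 were higher and 2 lower, with a median log2 fold change of 0.11. The share that passed was 46.2%, near the 44.3% of all genes tested. The shuttle gene Ubqln1, whose product carries ubiquitylated proteins to the proteasome, was at 251, 267 and 241 against 129, 146 and 149 CPM (log2 fold change 0.84 ± 0.092, adjusted p = 2.64e-05). Its relatives Ubqln4 and Ubqln2 had log2 fold changes of 0.37 and -0.26, the second lost in 8 of 17 alternatives. Adrm1, a further ubiquitin receptor of the cap, rose by 0.51 ± 0.094 (64.2 ± 4.75 against 44.9 ± 3.54 CPM), and lies 728 kb from Ythdf1. The adaptor gene Ecpas rose by 0.23 and the shuttle gene Rad23b fell by 0.23 on the log2 scale. Usp14 and Uchl5, deubiquitinases that bind the cap, did not pass, with 73.4 ± 2.47 against 73.96 ± 3.20 CPM and 16.1 ± 1.90 against 14.4 ± 0.864 CPM.

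Among 10 genes of ubiquitin and its first enzymes 3 were higher and 2 lower, so that 50% passed, against 44.3% of all genes tested. Ubb, a polyubiquitin gene, was at 501 ± 19.6 against 516 ± 23.05 CPM, which did not pass (adjusted p = 0.733). Uba6, an activating enzyme of ubiquitin, was lower at 39.2 ± 4.82 against 62.8 ± 7.79 CPM (-0.68), and Uba1, the main one, had 335 ± 21.2 against 371 ± 8.55 CPM (adjusted p = 0.215). Rps27a, which encodes ubiquitin fused to a ribosomal protein, was lower (-0.50, adjusted p = 0.0459) with overlapping genotypes. Ube2k was higher by 0.24 and lost its call in 8 of 17 alternatives.

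Copies elsewhere in the genome bear on how well single members were counted. A search found 23 annotated pseudogenes of 13 members, of which 16 had any count. Each matched a member's transcript at an identity of 90% or more over 50% or more of the pseudogene's own length. The annotated pseudogenes Psmb6-ps and Psmb7-ps2 were not among those found. Counts assigned to the 23 copies found came to 1.04% of those of Psma5 and to less for each of the other 12 members. Psma1 had no such copy, and the copies of Psmb5 held 23 counts in the 3 knockout libraries and 4 in the others, 0.496% of the counts of the gene. The handling of multiply mapped reads is not given, so these counts do not show how many reads of a member were lost.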

How the data were processed

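RNA from 6 libraries, 3 Ythdf1 knockout and 3 wild type, was analysed from the deposited table of raw counts per Ensembl gene. STAR and featureCounts with mm10 and GRCm38 are named in the submitters' processing notes. Not given in the sources used here are their versions, the annotation, the strand setting and the handling of multiply mapped reads. Per the labels, ribosomal RNA was depleted from total RNA. Groups and replicates came from sample titles, and symbols, places and transcript lengths from GENCODE M21, which held 53706 of 53801 identifiers.

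Counts were fitted with edgeR 4.0.16 in R 4.3.3: filterByExpr (minimum count 10, minimum total 15), TMM factors (0.975 to 1.02), robust dispersions and the legacy quasi-likelihood F test, 2-sided, with genotype as the single term. Benjamini-Hochberg adjustment ran over all 14816 genes, and a gene passed at an adjusted p under 0.05. CPM per kb divides CPM by the length of the main protein-coding transcript (APPRIS principal, longest), not by the exons counted. Floors of 3 counts cover counting error only. Members, lists and motifs were chosen with earlier results of these data known. The rule for values in every library took Nfe2l1, Pomp, the catalytic genes, the extremes of each class, Psmd2, Psmd4, Psmd14 and the assembly chaperones. Psma5, Psma6, Psmd3, Psmd11, Psmc1, Ddi2, Ngly1, Psmg2 and other list members, and the genes beside Psma1, were named after their values were seen. Some results of the ubiquitin list are not reported here. Copies were sought with BLAST+ 2.17.0. Alternatives used other scaling factors, DESeq2 1.42.0, limma 3.58.1, other filters, protein-coding genes alone, the replicate number or library suffix as a term, and each library left out.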

Additional observations from a re-analysis of the deposited data

How the results depend on the processing

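Of the 10 members that rose, 7 kept their call in all 17 alternatives (Psma1, Psma5, Psma6, Psmb5, Psmb7, Psmd3 and Psmd4). The exceptions were Nfe2l1, Psmc4 and Psmd11. The count of members higher in knockout was 8 to 11 with another scaling, tool, filter or term. It was 7 to 10 with 1 library left out, 5 to 6 for core and 2 to 4 for cap genes. The count lower was 0 except for 1 core gene, Psmb1, in limma-voom with quality weights, and 0 to 1 with 1 library left out. Over all genes, leaving out a library gave 2741 to 3395 higher and 2535 to 3279 lower. The core to cap difference was 0.15 to 0.23 with 1 library left out, and 0.065 without Psma1, an alternative chosen after seeing the data. The union exon length, also chosen then, gave 0.22.

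Correlations of deviations from the genotype means were -0.13, 0.012 and -0.14 for same-numbered libraries. For libraries with unlike numbers they were -0.052 to 0.15. Deviations from a mean of 3 libraries cancel within a genotype, so these values cannot decide whether replicate numbers pair the samples. With the replicate block, 9 members were higher and 0 lower (3136 and 2993 over all genes). Nfe2l1 (adjusted p = 0.098) and Psmd11 (0.0523) no longer passed and Psmb3 did.

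Members near 0 that did not pass changed sign. With upper-quartile factors the log2 fold changes were -0.018 for Psma2, -0.024 for Psmb4, -0.011 for Psmd2 and -0.054 for Psmd5. With limma-voom they were -0.048 for Psma2, -0.028 for Psma3, -0.072 for Psma7, -0.072 for Psmb4, -0.050 for Psmc5, -0.050 for Psmd2 and -0.096 for Psmd5. With no scaling factor they were 0.0026 for Psmc2, 0.018 for Psmd6 and 0.00010 for Psmd10, and for Psmd5 they were -0.0042 with RLE factors and -0.0016 with DESeq2. With 1 library left out Psma2 ran from -0.034 to 0.091, Psma3 from -0.056 to 0.17, Psma7 from -0.057 to 0.19, Psmb4 from -0.14 to 0.12, Psmc2 from -0.10 to 0.041, Psmc5 from -0.070 to 0.12, Psmd2 from -0.022 to 0.11, Psmd5 from -0.076 to 0.069, Psmd6 from -0.058 to 0.047 and Psmd10 from -0.12 to 0.097. The cause of these changes was not tested.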

Other observations

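The genes beside Psma1 on chromosome 7 were looked up after its value had been seen. Copb1, a coat protein gene next to it on the same strand, was at 182 ± 3.30 against 216 ± 17.8 CPM (log2 fold change -0.25 ± 0.09, adjusted p = 0.0425), lower where Psma1 was higher. Rras2, beyond Copb1, was at 119 ± 7.14 against 191 ± 10.4 CPM (-0.68 ± 0.087). On the other side Pde3b, the phosphodiesterase gene of the insulin response, was at 317 ± 37.4 against 55.4 ± 13.8 CPM (2.52 ± 0.18, adjusted p = 5.55e-06), a larger rise than that of Psma1, and Cyp2r1, at 2.39 ± 0.236 against 1.996 ± 0.386 CPM, did not pass.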
